A study of Mus musculus with 12 samples.

Results

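The genes described here are 36 genes of the G2 phase and of mitosis, measured in mouse follicular B cells before and after stimulation through the B cell receptor. They were taken as a list of named genes, and each was read at 1 probe set, the brightest on average of those that name only that gene. Of the 36, 35 were measured among 18193 genes in all; Ccnb1, the gene of cyclin B1, had no probe set naming it alone and was not analysed here. Follicular B cells (B220+, high in CD23 and low in CD21) were sorted from spleens of 6-week-old C57Bl/6 mice. The mice were either IkL/L, which carry a hypomorphic allele of Ikzf1 and so make little of the zinc finger transcription factor Ikaros, or wild type (WT). Cells of each genotype were kept for 3 h unstimulated, or were given goat anti-IgM F(ab')2, an antibody fragment that cross-links the receptor, at 10 µg/ml for 3 h or 12 h. Each of the 6 groups has 2 arrays, the groups being IkL/L unstimulated, IkL/L 3 h, IkL/L 12 h and the same 3 conditions in WT. The unstimulated cells were kept for 3 h, so at 12 h the length of culture and the stimulus cannot be told apart. The allele is carried by the whole animal, and the labels do not say how many mice were pooled for an array.

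Resting follicular B cells are quiescent, and a signal through the B cell receptor can move them into G1, where they grow and make the enzymes of DNA replication. The genes of mitosis come later. In quiescent cells many of them are held off by the DREAM complex, which binds through the MuvB core at a promoter element called the cell cycle homology region, and in G2 the same core works with B-Myb and FoxM1 to switch them on, often together with NF-Y at CCAAT boxes. Their products then act in order: cyclins and CDK1 start mitosis, the kinases Plk1 and Aurora A build the spindle, the checkpoint proteins watch over the kinetochores, and Cdc20 with the anaphase-promoting complex ends it. The comparison asks whether any of this programme was under way by 12 h, and whether the Ikaros mutants differed in it.

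The elements can be seen in the promoters of the genes on which the results turn. Each line below gives 300 bases of the RefSeq promoter of mouse build GRCm38.p6, 5′ to 3′ on the gene's own strand, with 250 bases before the start of the gene and 50 after it. Capitals mark every TTTGAA or TTCGAA, the core of the cell cycle homology region, and every CCAAT, each searched on both strands, so that ATTGG is a CCAAT box on the other strand. Cdc25b and Cenpa are shown as the genes that fell, Bub1b and Mad2l1 as genes that rose in WT cells at 12 h, and Plk1 and Ccnb2 as mitotic genes whose signal stayed low throughout.
Cdc25b, chr2:131186698-131186997, plus strand: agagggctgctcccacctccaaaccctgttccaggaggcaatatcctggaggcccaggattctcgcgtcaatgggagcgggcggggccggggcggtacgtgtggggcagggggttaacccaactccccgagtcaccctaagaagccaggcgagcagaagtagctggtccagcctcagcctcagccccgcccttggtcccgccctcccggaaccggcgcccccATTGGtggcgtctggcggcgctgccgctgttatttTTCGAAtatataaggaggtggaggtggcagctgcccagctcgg
Cenpa, chr5:30666636-30666935, plus strand: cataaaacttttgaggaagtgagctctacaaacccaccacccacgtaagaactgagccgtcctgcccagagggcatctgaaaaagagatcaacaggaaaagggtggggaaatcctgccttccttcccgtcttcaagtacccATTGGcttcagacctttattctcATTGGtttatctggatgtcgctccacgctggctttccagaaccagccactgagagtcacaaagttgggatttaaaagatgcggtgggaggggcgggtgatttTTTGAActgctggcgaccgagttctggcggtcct
Bub1b, chr2:118597961-118598260, plus strand: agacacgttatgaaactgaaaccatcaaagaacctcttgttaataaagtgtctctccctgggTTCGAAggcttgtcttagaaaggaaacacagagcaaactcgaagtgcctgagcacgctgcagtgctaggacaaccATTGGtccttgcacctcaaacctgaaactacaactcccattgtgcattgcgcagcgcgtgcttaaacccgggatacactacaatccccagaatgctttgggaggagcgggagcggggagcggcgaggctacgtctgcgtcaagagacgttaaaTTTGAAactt
Mad2l1, chr6:66534971-66535270, plus strand: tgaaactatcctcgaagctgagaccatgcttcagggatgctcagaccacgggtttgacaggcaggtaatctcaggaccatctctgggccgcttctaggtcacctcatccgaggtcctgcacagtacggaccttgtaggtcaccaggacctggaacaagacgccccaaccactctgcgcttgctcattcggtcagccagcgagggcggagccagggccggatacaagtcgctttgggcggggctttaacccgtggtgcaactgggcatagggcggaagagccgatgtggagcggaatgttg
Plk1, chr7:122159185-122159484, plus strand: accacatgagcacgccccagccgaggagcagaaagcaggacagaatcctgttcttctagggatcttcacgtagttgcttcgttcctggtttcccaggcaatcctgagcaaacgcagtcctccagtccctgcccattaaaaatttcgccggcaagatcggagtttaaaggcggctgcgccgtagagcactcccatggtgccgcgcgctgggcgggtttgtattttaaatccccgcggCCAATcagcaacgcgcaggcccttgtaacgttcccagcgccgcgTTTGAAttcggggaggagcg
Ccnb2, chr9:70421505-70421804, minus strand: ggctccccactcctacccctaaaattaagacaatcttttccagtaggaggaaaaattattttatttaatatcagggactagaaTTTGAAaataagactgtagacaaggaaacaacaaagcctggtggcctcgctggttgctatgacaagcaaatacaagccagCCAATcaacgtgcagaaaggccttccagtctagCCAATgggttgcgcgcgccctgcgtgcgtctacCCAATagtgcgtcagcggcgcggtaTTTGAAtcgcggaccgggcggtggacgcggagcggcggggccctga
Both elements lie in the windows of Cdc25b, Cenpa, Bub1b, Plk1 and Ccnb2, and neither is found in that of Mad2l1. Windows were matched for 29 of the 36 genes, Ccnb1 among them, and these have 30 windows because Prc1 has more than 1. The core of the cell cycle homology region was found in 24 of the 30 windows (80.0%), against 19.2% of all 32851 promoter windows. A CCAAT box was found in 25 of the 30 (83.3%), against 37.4% of all windows, and both together in 22 of the 30 (73.3%), against 7.52%. The elements were thus present in genes that fell, in a gene that rose and in genes that stayed dim, and a match says only that these letters are in the window.

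The values are log2 signals of an Affymetrix array, normalised with RMA, and a difference of 1 is a doubling of the signal. Array medians lay between 3.12 and 3.21, and replicate arrays correlated at 0.99 to 0.994 across genes. RMA values carry no detection call, so a floor of 4.21, which is 1 above the highest array median, was used to mark signals that could not be told from background. The 3 WT replicate 1 arrays stand apart from the other 9 by sex: Xist lay between 10.01 and 10.69 on them and between 3.19 and 3.48 on the others, and Eif2s3y, on the Y chromosome, between 2.41 and 2.83 against 8.30 to 9.24. Without them each WT group holds 1 array, and fewer of all genes were then called between the WT conditions. A lost call therefore cannot be put down to sex. The calls of mitotic genes lost without them are named below. Probe sets differ in how well they bind their target, so a signal is compared here between groups for the same gene and not between genes.

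Most of the mitotic genes were dim on every array. Of the 35, 22 (62.9%) lay below the floor on all 12 arrays, against 52.1% of all 18193 genes, and with a stricter floor of 4.58 there were 24. Those 22 hold the cyclins Ccna2 and Ccnb2, the phosphatase Cdc25c that activates CDK1, the kinases Plk1, Aurkb, Nek2, Bub1 and Ttk, and the survivin gene Birc5. They also hold Cenpe and Cenpf of the kinetochore, the spindle motors and organisers Kif11, Kif2c, Nusap1 and Tpx2, and the cytokinesis genes Kif20a, Prc1, Racgap1 and Anln. The remaining 3 are Ncapg, a condensin subunit, Ube2c, the ubiquitin-conjugating enzyme of the anaphase-promoting complex, and Espl1, the gene of separase. Plk1 shows how flat they were: its signal lay between 2.92 and 3.34 on all arrays.

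**Figure D1:**
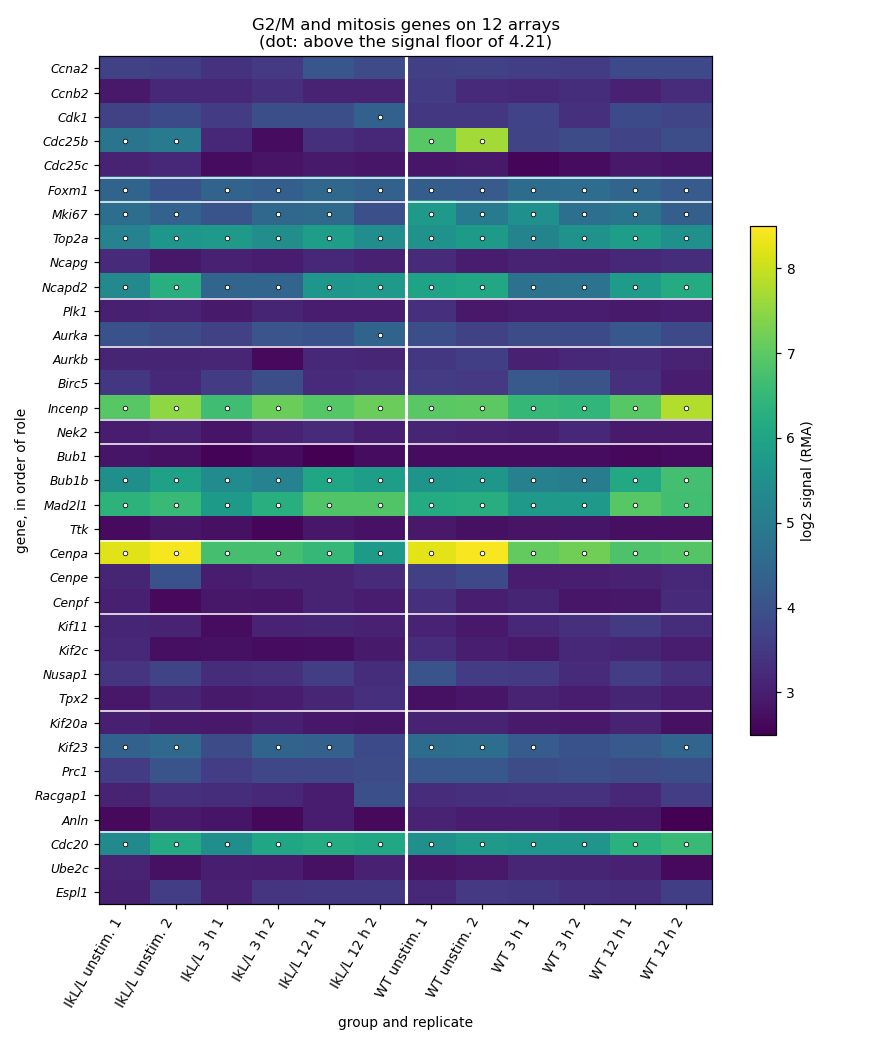
Log2 RMA signal of the 35 measured genes (rows, in order of role, with white lines between roles) on each of the 12 arrays (columns, IkL/L left of WT). Dots mark signals above the floor of 4.21; 7 rows have a dot on every array and 22 rows have none.

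Only 7 genes were above the floor on all 12 arrays, and they are not the kinases and cyclins that drive entry into mitosis. They are Cdc20, Bub1b, Mad2l1, Top2a (topoisomerase II alpha), Cenpa (the centromeric histone H3 variant), Ncapd2 (a condensin I subunit) and Incenp (the scaffold of the chromosomal passenger complex). Another 6 crossed the floor on some arrays: Cdk1, Cdc25b, Aurka, Mki67, Kif23 and Foxm1. The number of genes above the floor on both arrays of a group was no larger at 12 h than at rest. In IkL/L cells it was 10 unstimulated, 8 at 3 h and 8 at 12 h, and in WT cells it was 11, 9 and 9.

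By 12 h the list as a whole had not moved further than the other genes on the array. Differences were tested with limma on all genes, and a gene was called at a Benjamini-Hochberg adjusted p under 0.05. In IkL/L cells at 12 h against unstimulated, 1 of the 35 was called higher, where 9.72% of all genes were, and 2 were called lower, where 7.87% were. In WT cells 3 were called higher, against 10.1% of all genes, and 2 lower, against 8.66%. In both genotypes and both directions the share of the mitotic genes was under that of the whole array. The median difference of the 35 was 0.03 in IkL/L and -0.05 in WT, where the medians over all genes were 0.02 and 0.05.

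**Figure D2:**
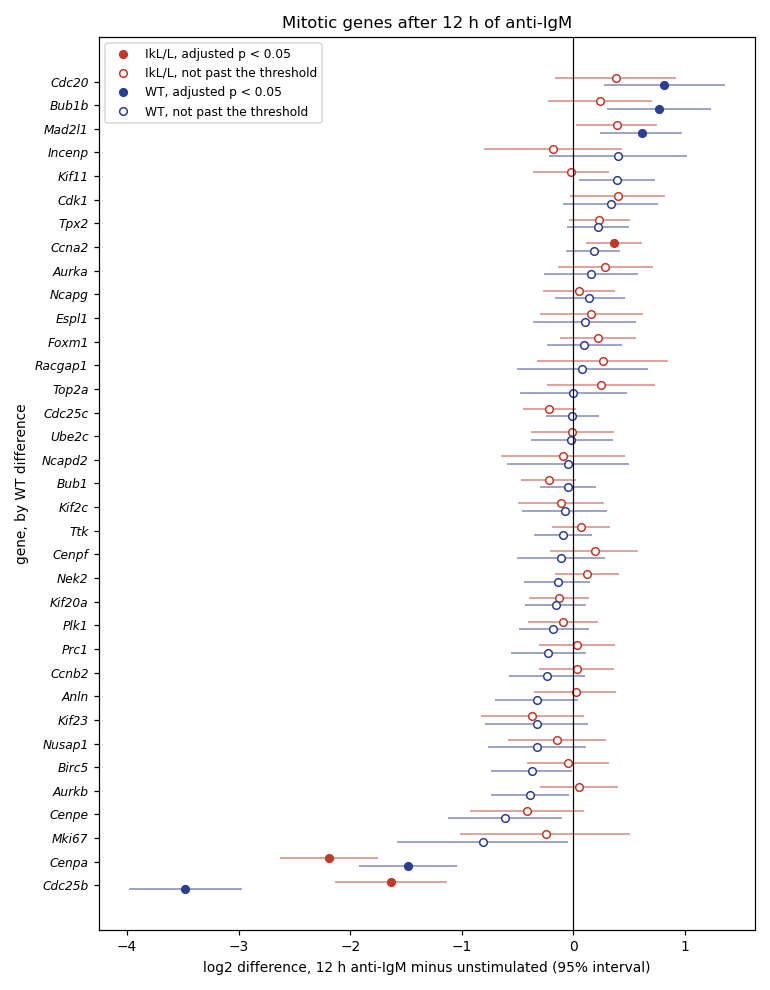
Log2 difference between 12 h of anti-IgM and unstimulated culture for each of the 35 genes, with its 95% interval from limma (n = 2 arrays per group), IkL/L in red above WT in blue. Filled points passed an adjusted p of 0.05; most intervals cross 0, and Cdc25b and Cenpa stand apart to the left.

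Against the 3 h cultures, 3 of the 35 were called higher at 12 h in each genotype: Ccna2, Mad2l1 and Ncapd2 in IkL/L, against 9.12% of all genes, and Bub1b, Mad2l1 and Ncapd2 in WT, against 6.5%. None was called lower in IkL/L (6.42% of all genes), and 1, Birc5, was called lower in WT (4.33%). In IkL/L limma gave 6 of the 35 an unadjusted p under 0.05 in either direction, and 4629 of all 18193 genes. With replicate number as a block within each genotype, 4 were called higher and 1 lower in IkL/L, where 12.5% and 9.33% of all genes were. In WT the block added Cdc20 and Incenp to the genes called higher, where 9.66% of all genes were, and Birc5 stayed lower (7.32%). When each array was scaled to 7 housekeeping genes, 0 were called higher in IkL/L and 2 lower, Birc5 (-0.82, adjusted p = 0.0235) and Cenpa (-0.96, adjusted p = 0.0186), where 2.67% and 9.43% of all genes were. With that scaling Bub1b and Mad2l1 were still called higher in WT, where 2.07% of all genes were. Birc5 was still called lower there (3.61% of all genes), and Ncapd2 was not called. At 3 h against unstimulated, 4 were called lower in each genotype, against 10.6% of all genes in IkL/L and 10.2% in WT; they were Cdc25b, Cenpa and Ncapd2 in both, with Cdc25c in IkL/L and Cenpe in WT. At 3 h none was called higher in IkL/L (9.82% of all genes) by limma. There 7 of the 35 had an unadjusted p under 0.05 in either direction, as had 5284 of all 18193 genes. In WT at 3 h 1 was called higher, Birc5, against 9.15% of all genes. Without the block or the scaling, these counts are near or under the shares of the whole array. With the block, and also with the housekeeping scaling, the share called higher at 12 h than at 3 h in WT was above that of all genes.

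Among the genes of the CDK1 switch, the largest change was a loss. Cdc25b encodes a phosphatase that removes the inhibitory phosphates from CDK1 and so starts mitosis. Its signals in IkL/L cells were 4.80 and 4.97 unstimulated, 3.16 and 2.71 at 3 h and 3.32 and 3.19 at 12 h. In WT cells they were 6.93 and 7.66 unstimulated, 3.72 and 3.86 at 3 h and 3.72 and 3.92 at 12 h. All 4 unstimulated arrays were above the floor, and all 8 stimulated arrays were below it, with no overlap in either genotype.

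Because the stimulated signals lay below the floor, the folds for Cdc25b are lower bounds set against the floor. At 3 h it fell by 1.95 ± 0.23 (SE) on the log2 scale in IkL/L (adjusted p = 0.000204, limma), at least 1.6-fold lower. In WT it fell by 3.51 ± 0.23 (adjusted p = 1.07e-05), at least 8.51-fold lower. The fall was still there at 12 h, at -1.63 in IkL/L (adjusted p = 0.000831) and -3.48 in WT (adjusted p = 1.11e-05), with the same bounds. Without the WT replicate 1 arrays the WT falls were -3.81 at 3 h (adjusted p = 0.00166) and -3.74 by 12 h (adjusted p = 0.0013).

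Cdc25b was also the 1 gene of the 35 called between the genotypes, and this was at rest. IkL/L minus WT was -2.41 ± 0.23 (SE) on the log2 scale in unstimulated cells, 5.32-fold lower in IkL/L (adjusted p = 0.00145, limma), and both IkL/L arrays were below both WT arrays. In unstimulated cells 1.13% of all genes were called between genotypes, and 0.533% were called lower. Without replicate 2 of IkL/L in all 3 conditions the adjusted p was 0.0728. The call was kept when any other array or set of 3 arrays was left out, among them the WT replicate 1 arrays that differ in sex (-2.78, adjusted p = 0.00846).

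The response of Cdc25b, 12 h minus unstimulated, was 1.84 ± 0.32 less negative in IkL/L than in WT (adjusted p = 0.156, limma; 0.0319 with replicate number as a block within each genotype). At 3 h this difference of responses was 1.56 (adjusted p = 0.295). With all 8 stimulated arrays below the floor, these 2 differences rest on the 4 unstimulated arrays and on signals that have no readable order. Among stimulated cells IkL/L minus WT was -0.85 after 3 h, with an adjusted p of 0.112, and -0.57 after 12 h, with an adjusted p of 0.436, all of these signals being under the floor.

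**Figure D3:**
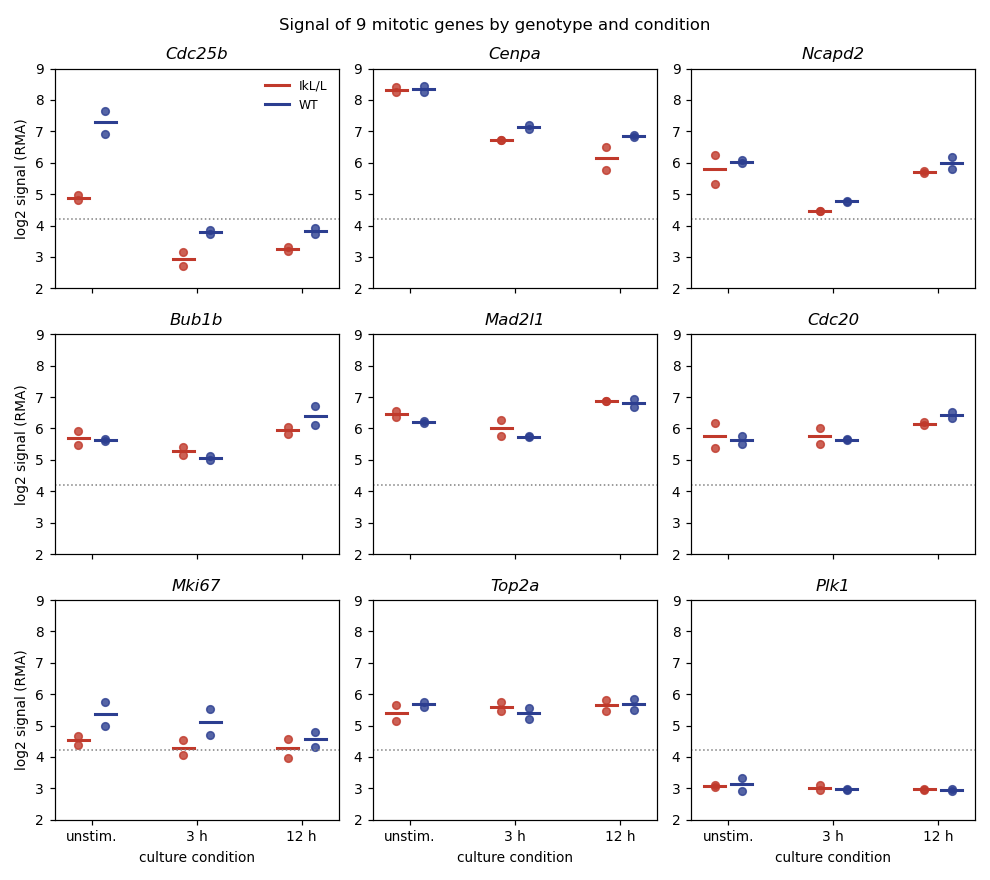
Log2 RMA signal of 9 mitotic genes on each array (points) with group means (bars), IkL/L in red left of WT in blue, for unstimulated culture, 3 h and 12 h of anti-IgM (n = 2 per group); the dotted line is the floor of 4.21. Cdc25b starts lower in IkL/L and drops under the floor in both genotypes, Cenpa falls in both, Ncapd2 dips at 3 h, and Plk1 stays under the floor.

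The other genes of the switch stayed at or under the floor. Cdk1 itself, the kinase that the mitotic cyclins activate, had signals of 3.65 and 3.85 unstimulated, 3.56 and 3.93 at 3 h and 3.93 and 4.37 at 12 h in IkL/L, and 3.47 and 3.47, 3.70 and 3.30, and 3.85 and 3.76 in WT. A single array, IkL/L 12 h replicate 2, was above the floor. Its differences at 12 h were 0.40 in IkL/L (95% interval -0.03 to 0.82, adjusted p = 0.228) and 0.34 in WT (-0.09 to 0.76, adjusted p = 0.307), neither passing the test.

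Ccna2, the gene of cyclin A2, which acts in S phase and G2, was called 0.36 higher in IkL/L at 12 h (adjusted p = 0.0496), and 0.56 higher than at 3 h (adjusted p = 0.00687). Its signals were 3.67 and 3.62 unstimulated, 3.39 and 3.49 at 3 h, and 4.11 and 3.90 at 12 h, all under the floor. The first of these calls was lost in 25 of 26 other settings, among them the replicate block (adjusted p = 0.0539), and the second without IkL/L 3 h replicate 1 (0.0531) or IkL/L 12 h replicate 1 (0.0603). In WT the 12 h difference was 0.18 (adjusted p = 0.372), and the second Ccna2 probe set had means of 3.44 at 12 h and 3.35 unstimulated in IkL/L. Cdc25c was called lower at 3 h in IkL/L (-0.37, adjusted p = 0.034), with every array between 2.60 and 3.16. This call was lost without any 1 of the IkL/L arrays compared (adjusted p from 0.0669 to 0.187) or either WT unstimulated array (0.0541). Ccnb2, the gene of cyclin B2, lay between 2.92 and 3.55 and was called in no comparison.

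Foxm1, the forkhead factor that drives many of these genes in G2, sat on the floor, at 4.01 to 4.64. Its 12 h differences were 0.22 in IkL/L (95% interval -0.12 to 0.56) and 0.09 in WT (-0.24 to 0.43), and neither passed the test (adjusted p = 0.446 and 0.789).

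Of the kinetochore genes, Cenpa fell in both genotypes. Cenpa marks the centromere and is loaded onto it after mitosis, so its message is usually made in G2. Its signals in IkL/L were 8.24 and 8.42 unstimulated, 6.74 and 6.73 at 3 h, and 6.50 and 5.78 at 12 h. In WT they were 8.25 and 8.43 unstimulated, 7.06 and 7.21 at 3 h, and 6.83 and 6.89 at 12 h. The genotypes coincided at rest, and in both every stimulated array was below every unstimulated one.

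At 3 h Cenpa fell by 1.59 ± 0.20 (SE) in IkL/L, 3.02-fold (adjusted p = 0.000287, limma), and by 1.21 ± 0.20 in WT, 2.31-fold (adjusted p = 0.0016). At 12 h it fell by 2.19 in IkL/L, 4.56-fold (adjusted p = 7.13e-05), and by 1.48 in WT, 2.79-fold (adjusted p = 0.000559). The WT call at 3 h was lost when either WT replicate was left out in all conditions (adjusted p = 0.0647 without replicate 1 and 0.0665 without replicate 2), and the call at 12 h was kept (0.0327 and 0.0433). A second, dimmer Cenpa probe set moved the same way, by -2.03 at 3 h and -2.64 at 12 h in IkL/L, and by -1.41 and -1.84 in WT, whereas the third lay under the floor throughout.

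At 12 h IkL/L minus WT was -0.72 for Cenpa, which did not pass the test (adjusted p = 0.204, 95% interval -1.16 to -0.28). Without IkL/L 12 h replicate 1, and likewise without replicate 1 of IkL/L in all conditions, it was -1.08 (adjusted p = 0.0487 in both). Between 3 h and 12 h in IkL/L it moved by -0.60 (adjusted p = 0.0745; 0.0448 with the replicate block). The motor gene Cenpe, which carries chromosomes to the spindle equator, was called lower at 3 h in WT (-0.76, adjusted p = 0.0438). All its arrays were under the floor, the lowest at 2.95, and the call was lost without any 1 of the 6 WT arrays or of the 4 stimulated IkL/L arrays. Without the WT replicate 1 arrays the difference was -0.82 (adjusted p = 0.293). With the replicate block Cenpe also passed at 3 h in IkL/L (-0.54, adjusted p = 0.0464) and at 12 h in WT (-0.61, adjusted p = 0.0272). Cenpf stayed between 2.65 and 3.33.

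Of the chromosome structure genes among the 36, Ncapd2 was called lower at 3 h. Its signals in IkL/L were 5.33 and 6.26 unstimulated, 4.45 and 4.45 at 3 h, and 5.66 and 5.75 at 12 h. In WT they were 5.98 and 6.09 unstimulated, 4.76 and 4.79 at 3 h, and 5.79 and 6.18 at 12 h. All 4 of the 3 h arrays were below the other 8.

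At 3 h Ncapd2 fell by 1.34 ± 0.25 in IkL/L, 2.54-fold (adjusted p = 0.00318, limma), and by 1.26 ± 0.25 in WT, 2.39-fold (adjusted p = 0.0048). Between 3 h and 12 h it rose by 1.25 in IkL/L (adjusted p = 0.00704) and by 1.21 in WT (adjusted p = 0.0119), and at 12 h it differed from unstimulated by -0.09 and -0.05 (adjusted p = 0.896 and 0.946). Without either WT replicate in all conditions the WT fall at 3 h was of like size, -1.30 without replicate 1 and -1.22 without replicate 2, but was no longer called (adjusted p = 0.0988 and 0.115). The WT rise after 3 h was lost without WT 3 h replicate 1 (0.0695), WT 3 h replicate 2 (0.0558) or WT 12 h replicate 2 (0.0896), and without either WT replicate in all conditions (1.38, adjusted p = 0.127, without replicate 1, and 1.03, adjusted p = 0.269, without replicate 2). Ncapd3, a condensin II subunit outside the 36 and named after its values were seen, also fell at 3 h, by 1.10 in IkL/L (adjusted p = 0.0101) and by 0.97 in WT (adjusted p = 0.0193). From 3 h to 12 h Ncapd3 rose by 1.45 in IkL/L (adjusted p = 0.0033) and by 1.52 in WT (adjusted p = 0.0038). The Ncapd3 falls were lost without IkL/L unstimulated replicate 1 (-1.01, adjusted p = 0.0668) or IkL/L 3 h replicate 1 (-0.88, adjusted p = 0.0859), and in WT without either unstimulated array (adjusted p = 0.0926 and 0.0864) or 3 h replicate 1 (-0.71, adjusted p = 0.163). Without the 3 WT replicate 1 arrays the WT fall was -0.70 (adjusted p = 0.305) and the later rise 1.49 (adjusted p = 0.0682). Of 18 condensin and cohesin genes outside the 36, Ncapd3 among them, 1 was called higher and 4 lower at 3 h in IkL/L. There 9.82% of all genes were higher and 10.6% lower. In WT 0 were higher and 5 lower, against 9.15% and 10.2% of all genes.

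Top2a, which untangles sister DNA and is widely used as a mark of S and G2 cells, did not pass the test at any time. Its signals were 5.15 to 5.83 in IkL/L and 5.21 to 5.85 in WT, and at 12 h it differed by 0.25 in IkL/L (95% interval -0.24 to 0.73) and 0.00 in WT (-0.48 to 0.48).

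Mki67, the gene of the proliferation antigen Ki-67, was called in no comparison. Its signals were 4.67 and 4.38 unstimulated, 4.06 and 4.53 at 3 h and 4.58 and 3.97 at 12 h in IkL/L, and 5.75 and 5.00, 5.52 and 4.70, and 4.81 and 4.31 in WT. The 12 h difference was -0.25 in IkL/L (adjusted p = 0.765) and -0.81 in WT (adjusted p = 0.15), and the WT one passed with the replicate block (adjusted p = 0.0174). In unstimulated cells IkL/L minus WT was -0.85, which did not pass the test (adjusted p = 0.385), although the 2 IkL/L arrays were both below the 2 WT arrays.

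The spindle checkpoint genes Bub1b and Mad2l1 were called higher at 12 h than at 3 h in WT, and Mad2l1 also in IkL/L. Bub1b (BubR1) and Mad2l1 (Mad2) are parts of the mitotic checkpoint complex that holds back Cdc20 until every kinetochore is attached. Bub1b had signals of 5.48 and 5.93 unstimulated, 5.40 and 5.17 at 3 h, and 6.06 and 5.83 at 12 h in IkL/L, and 5.60 and 5.68, 5.12 and 5.01, and 6.11 and 6.71 in WT. The WT 12 h arrays were above all other WT arrays, whereas the IkL/L 12 h arrays overlapped the unstimulated ones.

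In IkL/L, Bub1b at 12 h differed from unstimulated by 0.24 (adjusted p = 0.593, limma) and from 3 h by 0.66 (adjusted p = 0.0604; 0.0406 with the replicate block). In WT it rose by 0.77 ± 0.21 over unstimulated, 1.7-fold (adjusted p = 0.0269), and by 1.34 over 3 h, 2.54-fold (adjusted p = 0.00284). The WT rise over unstimulated was lost without WT unstimulated replicate 1 (adjusted p = 0.13), WT unstimulated replicate 2 (0.097) or WT 12 h replicate 2 (a difference of 0.47, adjusted p = 0.196). It was also lost when all 3 arrays of WT replicate 1 (1.03, adjusted p = 0.0614) or of WT replicate 2 (0.51, adjusted p = 0.38) were left out, and the rise over 3 h without WT replicate 2 in all conditions (0.122). A second Bub1b probe set, with a mean of 4.68, was 0.50 higher at 12 h in IkL/L (adjusted p = 0.0492 over all probe sets) and 0.55 higher in WT (0.0317). The difference between the genotypes' responses was not called for any of the 35 genes, as given below.

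Mad2l1 had signals of 6.38 and 6.57 unstimulated, 5.77 and 6.26 at 3 h, and 6.86 and 6.87 at 12 h in IkL/L, and 6.18 and 6.24, 5.75 and 5.73, and 6.95 and 6.68 in WT. In both genotypes the 12 h arrays were above the others and the 3 h arrays below them. Over 3 h it rose by 0.85 in IkL/L, 1.8-fold (adjusted p = 0.0062), and by 1.07 in WT, 2.11-fold (adjusted p = 0.00263). Over unstimulated it differed by 0.39 in IkL/L (adjusted p = 0.158) and rose by 0.61 in WT, 1.52-fold (adjusted p = 0.0261).

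The rise of Mad2l1 over unstimulated WT cells was lost without WT unstimulated replicate 1 (adjusted p = 0.13), WT unstimulated replicate 2 (0.0946) or WT 12 h replicate 1 (0.156), and without WT replicate 1 (0.413) or WT replicate 2 (0.14) in all conditions. The rise over 3 h was lost without WT replicate 1 (0.115) or WT replicate 2 (0.0703) in all conditions, and in IkL/L without IkL/L replicate 1 in all conditions (0.119). Part of the rise over 3 h stands against a lower signal at 3 h, by -0.46 in IkL/L (adjusted p = 0.0781) and -0.47 in WT (0.0798), both of which passed with the replicate block (0.038 and 0.0384). The partner kinases of the checkpoint, Bub1 (2.48 to 2.85) and Ttk (2.59 to 2.91), stayed well under the floor on all arrays.

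Cdc20, the activator of the anaphase-promoting complex that Mad2 and BubR1 inhibit, had signals of 5.38 and 6.16 unstimulated, 5.49 and 6.02 at 3 h and 6.20 and 6.10 at 12 h in IkL/L, and 5.51 and 5.75, 5.66 and 5.62, and 6.34 and 6.54 in WT. At 12 h it differed by 0.38 in IkL/L (adjusted p = 0.413) and was 0.81 higher in WT (adjusted p = 0.0421), the highest adjusted p of the 3 WT rises. This WT call was lost without any single WT array or either IkL/L 12 h array, with adjusted p between 0.0579 and 0.22, and without the WT replicate 1 arrays in all conditions (0.80, adjusted p = 0.324). The chosen probe set is one whose design may bind other transcripts, and a second one showed 0.50 in IkL/L (adjusted p = 0.155) and 0.48 in WT (0.172). Over 3 h the WT difference was 0.80 (adjusted p = 0.0668; 0.0139 with the replicate block).

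The 3 WT rises at 12 h also depended on the scaling of the arrays. When each array was scaled to 7 housekeeping genes, all genes moved by -0.36 in IkL/L and -0.186 in WT in this comparison. Of these 7, Gusb and Hprt were themselves called higher at 12 h as deposited, Gusb by 1.71 in IkL/L and 1.12 in WT, and Hprt by 0.50 in IkL/L and 0.66 in WT. Then 0 of the 35 genes were higher at 12 h in either genotype, where 2.49% of all genes were in IkL/L and 4% in WT, and Cdc20, Bub1b and Mad2l1 had adjusted p of 0.27, 0.265 and 0.356 in WT. Mki67 was called lower in WT with that scaling (adjusted p = 0.0288), and the falls of Cdc25b and Cenpa were kept. The split of all called genes moved with it: 18.6% were higher in IkL/L, against 55.3% as deposited, and 32.2% in WT, against 53.9%. With arrays centred on their medians Bub1b and Mad2l1 were called (adjusted p = 0.0487 and 0.049) and Cdc20 was not (0.0753).

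In the chromosomal passenger complex, which corrects faulty attachments, Incenp was above the floor on all arrays, and Birc5 and Aurkb were below it. Cdca8, another gene of the complex, was read with the mitotic entry genes and lay between 5.46 and 6.84, above the floor. Incenp lay between 6.67 and 7.47 in IkL/L and between 6.46 and 7.82 in WT and was called in no comparison. Its difference between 12 h and 3 h in WT was 0.89 (adjusted p = 0.0739; 0.0138 with the replicate block), with the higher 12 h array at 7.82 and the other at 6.93. Its other 4 probe sets had means of 2.67 to 3.90, so the bright signal rests on 1 probe set whose design may bind other transcripts.

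Birc5 (survivin), which brings the complex to the centromere, was called 0.58 higher at 3 h in WT (adjusted p = 0.0305) and lower at 12 h than at 3 h (-0.95, adjusted p = 0.00477). Its WT signals were 3.55 and 3.50 unstimulated, 4.17 and 4.04 at 3 h, and 3.31 and 2.99 at 12 h. All of them were under the floor, and the call at 3 h was lost without any 1 of the 4 arrays compared (adjusted p from 0.0709 to 0.167), and without the WT replicate 1 arrays in all conditions (0.54, adjusted p = 0.283). The later fall was lost without either WT replicate in all conditions (0.082 without replicate 1, 0.143 without replicate 2). Aurkb, the kinase of the complex, lay between 2.65 and 3.62.

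No spindle or cytokinesis gene was called in any comparison. Kif23, the motor of the central spindle, lay between 3.84 and 4.66, and its 12 h differences were -0.37 in IkL/L and -0.33 in WT (adjusted p = 0.316 and 0.377). Aurka, the spindle pole kinase, lay between 3.65 and 4.44 and had 1 array above the floor, IkL/L 12 h replicate 2, the same array as for Cdk1. Its 12 h differences were 0.28 in IkL/L (adjusted p = 0.43) and 0.16 in WT (adjusted p = 0.705).

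Between IkL/L and WT no mitotic gene besides Cdc25b at rest was called. After stimulation limma called 0 of the 35 at 3 h, where 1.7% of all genes were called, and 0 at 12 h, where 0.616% were. At each time 2 of the 35 had an unadjusted p under 0.05. Of all 18193 genes 2314 had one at 3 h and 1817 at 12 h. The test of a different response called 0 of 35 at 3 h (0.0385% of all genes) and 0 at 12 h (0.022%). In it 1 and 2 of the 35 had an unadjusted p under 0.05, beside 1027 and 1126 of all genes. The median difference of the 35, IkL/L minus WT, was -0.07 unstimulated, -0.12 at 3 h and -0.03 at 12 h, beside 0.02, -0.02 and 0.00 over all genes. With 2 arrays a group, the 95% interval of a genotype difference reached about as far as for Bub1b at 12 h, -0.93 to 0.00. That interval is not adjusted for the number of genes tested, so differences of that size and larger ones could go uncalled.

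Other genes of the cell cycle did move by 12 h, many of them genes of earlier steps. These lists, like the 36 genes, were chosen with results of these data known, and none of their genes is among the 36. Of 35 measured genes of G1/S and DNA replication, 15 rose and 2 fell in IkL/L at 12 h, and 12 rose and 2 fell in WT, where over all genes 9.72% rose in IkL/L and 10.1% in WT. The median difference of the list was 0.41 in IkL/L and 0.39 in WT. Uhrf1, which recruits the maintenance DNA methyltransferase, rose by 1.90 in IkL/L (at least 3.37-fold, adjusted p = 0.000138) and by 1.74 in WT (3.34-fold, adjusted p = 0.000181). Rfc4, a subunit of the clamp loader, rose by 1.13 in IkL/L (adjusted p = 0.0262) and 2.20 in WT (adjusted p = 0.00063). Without IkL/L unstimulated replicate 1 the IkL/L rise of Rfc4 was 0.61 (adjusted p = 0.156), and it was also lost without either IkL/L 12 h array (0.149 without replicate 1, 0.0599 without replicate 2). E2f2, of the E2F family, fell by 1.69 in WT (adjusted p = 0.00589) and differed by -0.93 in IkL/L (adjusted p = 0.0972). Without WT unstimulated replicate 2 the WT fall of E2f2 was -1.03 (adjusted p = 0.0168).

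Of 21 genes that control entry into mitosis, 9 rose in each genotype, against 9.72% of all genes in IkL/L and 10.1% in WT. In IkL/L 1 fell (7.87% of all genes) and in WT 0 fell (8.66%). In WT limma gave 12 of the 21 an unadjusted p under 0.05, rises and falls together, and 5088 of all 18193 genes. The genes that rose both restrain and promote entry. Chek1, the checkpoint kinase that restrains Cdc25, rose by 2.02 in IkL/L (at least 2.72-fold, adjusted p = 0.000316) and by 1.53 in WT (at least 2.08-fold, adjusted p = 0.00127). Wee1, the kinase that puts the inhibitory phosphate on CDK1, rose by 0.61 in IkL/L (adjusted p = 0.034) and 1.26 in WT (adjusted p = 0.000606). The IkL/L call of Wee1 was lost without any 1 of 5 arrays, among them IkL/L 12 h replicate 1 (0.41, adjusted p = 0.237). Cks1b, a small partner of the CDKs that also helps destroy the inhibitor p27, rose by 1.41 in IkL/L and 1.79 in WT (adjusted p = 0.000554 and 0.000113). On the promoting side, and named after their values were seen, Cdc25a, a phosphatase that activates CDKs, rose by 0.60 in IkL/L and 0.86 in WT. Its IkL/L call was lost without IkL/L unstimulated replicate 2 (0.106) or either IkL/L 12 h array (0.0823 without replicate 1, 0.0593 without replicate 2). Ensa, whose phosphorylated protein inhibits the phosphatase that opposes CDK1, rose by 0.90 in IkL/L and 0.93 in WT. Ccnh and Cdk7, subunits of the CDK-activating kinase, rose by 0.89 and 0.84 in IkL/L and by 0.93 and 0.72 in WT.

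**Figure D4:**
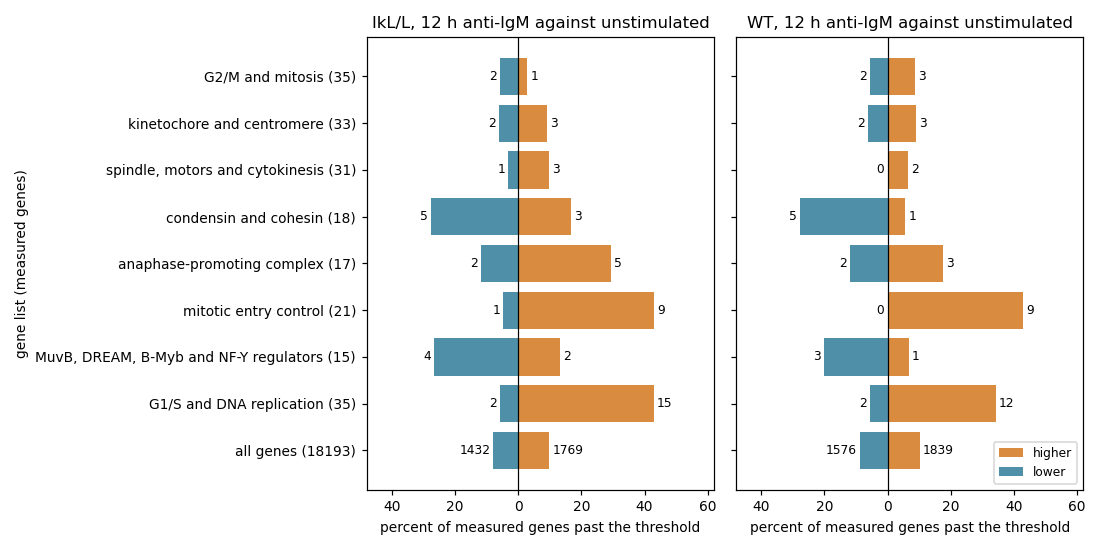
Percent of the measured genes of each list called higher (orange, right) or lower (blue, left) at 12 h of anti-IgM against unstimulated culture, IkL/L in the left panel and WT in the right; the number of genes stands beside each bar, and all genes are the bottom row. The G1/S and mitotic entry lists reach furthest to the right, and the G2/M and mitosis list does not exceed the bottom row on that side.

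Other parts of the mitotic apparatus gave mixed counts. Of 33 further kinetochore and centromere genes, 3 rose and 2 fell in each genotype, shares under those of all genes. Over all genes 9.72% rose and 7.87% fell in IkL/L, and 10.1% and 8.66% in WT. Ndc80, which couples kinetochores to microtubules, fell by 1.81 in IkL/L (at least 2.45-fold) and fell by 2.29 in WT (at least 3.44-fold). Zwint, which helps to recruit motors to kinetochores, rose by 1.39 in IkL/L and 1.19 in WT, and Cenpm, of the inner kinetochore, rose by 1.30 in IkL/L (at least 2-fold) and 0.94 in WT (at least 1.47-fold), its 4 unstimulated arrays being under the floor. The WT call of Cenpm was lost without WT unstimulated replicate 2 (0.75, adjusted p = 0.146) or WT 12 h replicate 1 (0.58, adjusted p = 0.123). The call of Zwint was lost without any 1 of the 4 WT arrays compared, and in IkL/L without unstimulated replicate 1 or 12 h replicate 2 (adjusted p from 0.0542 to 0.0843 in all). Of 31 spindle, motor and cytokinesis genes, 3 rose and 1 fell in IkL/L and 2 rose and 0 fell in WT, beside the same shares of all genes. In WT 4 of the 31 had an unadjusted p under 0.05 in limma, rises and falls together, as had 5088 of all 18193 genes. The beta-tubulin gene Tubb5 was one of those that rose, by 1.20 in IkL/L and 1.07 in WT.

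Of 18 condensin and cohesin genes, 3 rose and 5 fell in IkL/L, where 9.72% of all genes rose and 7.87% fell. In WT 1 rose and 5 fell, where 10.1% of all genes rose and 8.66% fell. Cdca5 (sororin), which protects cohesion, rose by 1.58 in IkL/L (at least 2.66-fold) and 1.39 in WT, and its WT call was lost without WT 12 h replicate 2 (1.11, adjusted p = 0.0617). Without replicate 1 of IkL/L in all conditions the Cdca5 rise was 0.95 there (adjusted p = 0.178). The cohesin loader Nipbl fell by 0.83 in IkL/L and fell by 0.89 in WT, and in either genotype the call was lost without any 1 of the 4 arrays compared. Of 17 genes of the anaphase-promoting complex and its regulators, 5 rose and 2 fell in IkL/L, against 9.72% and 7.87% of all genes. In WT 3 rose and 2 fell, against 10.1% and 8.66% of all genes. Fbxo5 (Emi1), which inhibits the complex, fell by 1.10 in IkL/L and fell by 0.92 in WT.

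Of 15 genes of the MuvB, DREAM, B-Myb and NF-Y regulators, 2 rose and 4 fell in IkL/L, against 9.72% and 7.87% of all genes. In WT 1 rose and 3 fell, against 10.1% and 8.66% of all genes. Rbl2, the p130 pocket protein of the DREAM complex, fell by 1.16 in IkL/L (2.23-fold, adjusted p = 0.000821) and fell by 1.59 in WT (3-fold, adjusted p = 0.00011). Of the E2F partners, Tfdp1 rose by 1.76 in IkL/L and 1.48 in WT, and Tfdp2 fell by 1.42 in both. Without replicate 2 of IkL/L in all conditions the IkL/L fall of Rbl2 was -0.76 (adjusted p = 0.0385).

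The counts of these lists depended on the scaling and on single sets of arrays. With housekeeping scaling 2.49% of all genes rose and 10.9% fell in IkL/L at 12 h, and 4% rose and 8.42% fell in WT. Of the G1/S genes 4 (11.4%) then rose and 3 fell in IkL/L, and 6 (17.1%) rose and 3 fell in WT. Of the mitotic entry genes 2 (9.52%) rose and 1 fell in IkL/L, and 4 (19%) rose and 0 fell in WT, so both lists still held a larger share of rising genes than the array. The balance turned in the spindle list, where 1 rose and 3 fell in IkL/L and 1 rose and 2 fell in WT. It also turned in the kinetochore list (1 rose and 2 fell in IkL/L, 0 and 1 in WT) and in that of the anaphase-promoting complex (2 and 3 in IkL/L, 1 and 2 in WT).

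Without the WT replicate 1 arrays, 4.4% of all genes rose in WT at 12 h. Then 3 of the G1/S genes (8.57%) and 2 of the mitotic entry genes (9.52%) rose in WT, and 1 each of the spindle, condensin and cohesin, and anaphase-promoting complex lists and 0 of the kinetochore list. The WT calls of Chek1 (1.40, adjusted p = 0.0659), Zwint (0.182), Cenpm (0.125), Nipbl (0.0664), Cdc25a (0.0546), Ensa (0.0829), Ccnh (0.0692) and Cdk7 (0.177) were lost, and those of Uhrf1, Rfc4, E2f2, Wee1, Cks1b, Ndc80, Tubb5, Cdca5, Fbxo5, Rbl2, Tfdp1 and Tfdp2 were kept. Without replicate 1 or replicate 2 of IkL/L in all conditions, 3 or 9 of the G1/S genes and 3 or 5 of the mitotic entry genes rose in IkL/L, where 4.64% or 4.38% of all genes did.

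Markers of the sorted cells and of possible other cells were read beside these values. The B cell markers averaged 8.57 to 10.41 on every array. Of the 8 measured, 5 fell in IkL/L and 7 in WT at 12 h, where 7.87% and 8.66% of all genes fell. All 6 measured T cell markers were under the floor. Among 7 measured markers of germinal centre B cells, a proliferating stage, Fas, Gcsam and Mybl1 were under the floor, S1pr2 reached 4.37, Mef2b reached 5.15 and Bcl6 lay between 5.22 and 8.12. Rgs13 was 3.01 and 2.95 in IkL/L at 12 h, against 4.65 and 4.50 in WT (-1.60, adjusted p = 0.00603), and was the 1 gene of these 7 called between genotypes at 12 h, a call lost without IkL/L 12 h replicate 2 (-1.57, adjusted p = 0.0675). S100a8, a gene of neutrophils, was higher in replicate 2 than in replicate 1 of every group (3.42 to 7.26 in all). The myeloid genes S100a9 and Lyz2 went the same way, Lyz2 being under the floor on most arrays. Csf1r, Itgam, Mpo and Elane of that list were under the floor on all arrays. The erythroid gene Alas2 was higher in replicate 1 (2.98 to 5.07), whereas Hba-a1, Klf1, Epor and Car1 were under the floor on all arrays. Of 6 plasma cell markers, 4 had a higher and 2 a lower mean in IkL/L than in WT at rest, beside the lower Cdc25b there, and 1 was called. This was Sdc1 (-3.13, adjusted p = 0.00252; -3.33, adjusted p = 0.00846, without the WT replicate 1 arrays), whereas Jchain differed by 1.13 (adjusted p = 0.857) and Xbp1 by 0.48 (adjusted p = 0.22). The part of other cells in the results was not tested. In bulk samples fewer cells of a type and less RNA per cell cannot be told apart.

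Ikzf1 itself, the gene altered in IkL/L, did not differ between genotypes in a way that checks the labels. Its signals in IkL/L were 10.00 and 9.94 unstimulated, 8.58 and 8.08 at 3 h and 9.59 and 8.98 at 12 h, and in WT they were 9.85 and 9.83, 8.93 and 9.10, and 10.33 and 10.00. The differences were 0.13, -0.68 and -0.88 (adjusted p = 0.937, 0.193 and 0.148). No source used here says where its probe set lies relative to the altered part of the gene, so it checks nothing.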

How the data were processed

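The labels name an Affymetrix mouse array and a 2-cycle labelling of 100 ng of RNA. The authors deposited log2 signals made with RMA, per the submitters' processing notes; the version and the array software are not given in the sources used here. The table holds 45037 probe sets on 12 arrays. Of these 34945 name 1 gene, 932 several and 9160 were not named by the annotation used. For each of 18193 genes the probe set with the highest mean was kept. One mean per group was fitted to all 12 arrays with limma 3.58.1 in R 4.3.3 (lmFit and eBayes, 6 residual degrees of freedom), 11 contrasts were drawn, and p-values were adjusted over all genes (Benjamini-Hochberg). The fit was also run on simulated data drawn with independent noise on each array. Those data held no pairing of replicates and no sex difference, so the run did not test the effect of either.

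Genes were named if called in any comparison or above the floor in any group, and from each other list up to 3 called genes with the largest change. The 36 genes, the other lists and the tests were chosen with earlier results of these data known. The design text speaks of 2 independent experiments, but the labels do not tie arrays to animals, so p-values measure the spread between these arrays. Over the 6064 brightest genes, same-numbered arrays deviated together within a genotype (r from 0.546 to 0.619 in WT, 0.354 to 0.49 in IkL/L) and less between genotypes (0.0263 to 0.31). The fit behind the reported calls did not treat same-numbered arrays as paired, and a fit with replicate number as a block was an alternative. Other alternatives were the choice of probe set, a filter on dim genes, array weights, an intensity trend, fits to only the arrays compared, housekeeping scaling, median centring, leaving out arrays and, added after seeing the data, another floor and the same settings for the other lists. 2 arrays a group limit the precision.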

Additional observations from a re-analysis of the deposited data

Results flagged for a closer look

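The 12 h response of Cdc25b differed between the genotypes by 1.84 on the log2 scale, IkL/L minus WT, when replicate number was a block within each genotype (adjusted p = 0.0319, limma over all genes). It drew attention because the difference of responses itself passed the test in that fit. Without the block the adjusted p was 0.156. The response was -1.63 in IkL/L and -3.48 in WT, and the signals of both genotypes at 12 h were under the floor of 4.21. No outlier among replicates could be looked for with 2 arrays a group.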

How the results depend on the processing

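Each of the 25 calls of a mitotic gene was recomputed in 26 other settings. In all of them 8 calls were kept, and 0 reversed direction. Of 284 recomputed counts, 262 lay within 1.5 times the count as reported. For WT at 3 h against unstimulated, 9 genes were called with only the arrays compared and 3 with housekeeping scaling, against 5. For WT at 12 h against unstimulated, 3 were called with housekeeping scaling, all lower, against 5, and 2260 of all genes, against 3415. For IkL/L at 12 h against 3 h, 5 were called with the replicate block and 5 with median centring, against 3. There the block called 3975 of all genes and median centring 2614, against 2827. The replicate block also gave 1 call in the 12 h difference of responses, against 0, and 26 calls over all genes, against 4. Leaving out arrays gave 1 to 6 calls for WT at 3 h, 2 to 6 for WT at 12 h and 0 to 5 for WT between them, and in IkL/L 3 to 4, 2 to 3 and 2 to 4. Between genotypes it gave 0 to 1 unstimulated, 0 at 3 h and 0 to 1 at 12 h. The cause of these shifts was not tested, except that fewer arrays leave fewer degrees of freedom. The replicate block changed no call of a mitotic gene beyond those given with it in the results. Where 1 array of a group was left, it was assumed to vary like the other groups. With median centring, all genes moved by -0.12 between 3 h and 12 h in IkL/L, and 45.3% of the called genes were higher there, against 58.7% as deposited. With housekeeping scaling that share was 22% in IkL/L, and in WT 36.4%, against 60%. Signals under the floor limit the changes that can be seen for 22 of the 35 genes.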
